A study of Mus musculus with 16 samples.

Results

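Open chromatin was examined around 4 surface receptor genes whose products mark double negative (DN) thymocytes, *Kit*, *Flt3*, *Cd44* and *Il2ra*. A peak belonged to a gene where at least 1 bp of it lay in the gene body or within 50 kb on either side (mm10, GENCODE M21). By this rule 409 of 476734 peaks were members. DN gave 121 of its 150139 peaks, DP 93 of 107110, SP4 104 of 115074 and SP8 91 of 104411. Peaks of the 4 stages that shared at least 1 bp were merged, which gave 147 regions in the 4 windows out of 185978 in all. The ATAC-seq data came from the thymus of wild type C57BL/6J mice aged 9 weeks, with 4 mice per stage and 16 libraries. Sorted DN cells carried neither CD4 nor CD8 nor CD3, DP cells carried CD4 and CD8, and SP4 and SP8 cells carried CD3 with CD4 or CD8 alone. Erythroid, B, myeloid, dendritic, NK and gamma delta T cells were gated out with a lineage cocktail. KIT, CD44 and CD25 were not used in the sort, so the DN list pools all DN substages. The authors pooled the 4 mice of a stage before they called peaks, so each stage is 1 list without a spread between mice, and differences between stages are described here and were not tested. Where 4 values stand in a row, they are in the order DN, DP, SP4 and SP8.

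KIT and FLT3 are class III receptor tyrosine kinases that bind stem cell factor and FLT3 ligand, and both are carried by the earliest progenitors that settle the thymus. CD44 is a receptor for hyaluronan, and CD25, the product of *Il2ra*, is the alpha chain of the high-affinity interleukin 2 receptor. Thymocytes lose KIT and CD44 and gain and then lose CD25 as they pass through the DN substages, and CD44 and CD25 are carried again by activated, memory and regulatory T cells.

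Regions that differed widely between DN and the single positive stages are shown first, because the results below return to them. Positions are in kb from the gene start in the direction of transcription, and a minus sign marks the upstream side. Each sequence is the 100 bp of the plus strand of mm10 around the summit of the region's highest peak, in lower case. Capitals mark exact matches to 1 of 11 consensus motifs, which are spelled out with the motif results. Chosen after their values were seen, the following 4 stood high at DN and were low or absent at SP4 and SP8.
*Kit* +48.8 kb (chr5:75623684-75623783): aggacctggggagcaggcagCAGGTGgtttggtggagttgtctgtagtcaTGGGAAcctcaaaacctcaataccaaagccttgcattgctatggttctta
*Flt3* -26.1 kb (chr5:147426523-147426622): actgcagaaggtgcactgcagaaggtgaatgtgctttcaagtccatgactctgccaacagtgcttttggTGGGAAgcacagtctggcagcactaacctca
*Cd44* -42.7 kb (chr2:102944277-102944376): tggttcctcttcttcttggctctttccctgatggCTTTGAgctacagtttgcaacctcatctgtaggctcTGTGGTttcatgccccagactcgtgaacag
*Il2ra* -37.7 kb (chr2:11605058-11605157): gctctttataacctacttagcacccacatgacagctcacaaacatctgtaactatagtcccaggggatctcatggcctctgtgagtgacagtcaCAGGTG

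A further 3 regions, also chosen after their values were seen, were called in SP cells but not at DN (*Kit* and *Cd44*) or stood among the highest peaks of every stage (*Il2ra*).
*Kit* +78.2 kb (chr5:75653038-75653137): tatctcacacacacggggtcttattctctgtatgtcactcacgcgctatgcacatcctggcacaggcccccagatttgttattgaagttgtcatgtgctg
*Cd44* +69.9 kb (chr2:102831698-102831797): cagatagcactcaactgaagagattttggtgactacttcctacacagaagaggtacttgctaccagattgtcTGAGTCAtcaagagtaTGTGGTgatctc
*Il2ra* +10.8 kb (chr2:11653525-11653624): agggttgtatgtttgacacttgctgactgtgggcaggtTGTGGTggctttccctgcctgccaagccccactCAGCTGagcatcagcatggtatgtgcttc

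For each gene, the DN-only region with the highest −log10 q-value and no exon is given next. Among regions without an exon, these are the best supported of those seen at DN and at no later stage. At *Flt3*, the DN-only region at -9.6 kb had a higher −log10 q-value but overlapped an exon of *Gm29793*.
*Kit* +105.2 kb (chr5:75680023-75680122): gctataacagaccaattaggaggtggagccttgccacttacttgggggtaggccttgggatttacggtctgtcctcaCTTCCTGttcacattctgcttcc
*Flt3* +26.7 kb (chr5:147373740-147373839): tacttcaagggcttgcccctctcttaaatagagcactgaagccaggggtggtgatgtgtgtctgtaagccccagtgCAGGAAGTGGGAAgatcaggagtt
*Cd44* -25.7 kb (chr2:102927332-102927431): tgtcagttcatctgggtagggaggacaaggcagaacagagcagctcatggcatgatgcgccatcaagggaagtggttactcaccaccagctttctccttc
*Il2ra* +71.8 kb (chr2:11714564-11714663): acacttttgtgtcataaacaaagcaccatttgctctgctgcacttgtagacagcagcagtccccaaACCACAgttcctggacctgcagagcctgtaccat

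*Kit*, *Flt3* and *Il2ra* had the most peaks at DN, whereas *Cd44* had the most at SP4. The *Kit* window held 21, 11, 15 and 16 peaks. The *Flt3* window held 43, 38, 38 and 34. *Cd44* held 20, 22, 27 and 20. *Il2ra* held 37, 22, 24 and 21. The DN list was the longest, and 63.5% of the 20780 protein-coding genes of chromosomes 1 to 19 had more DN peaks than peaks of each other stage, and 3 of the 4 receptor genes did. In a pool of cells, fewer cells of a type and less accessibility per cell cannot be told apart.

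**Figure D1:**
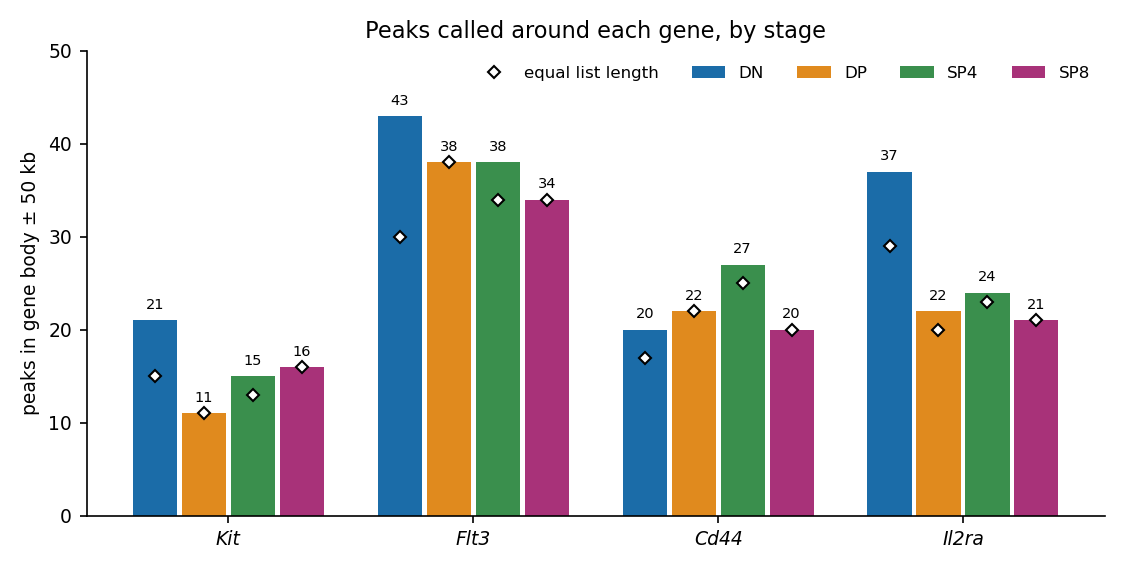
Peaks in the gene body and 50 kb on either side (y axis, count) of each gene, with a bar for each stage's pooled list and an open diamond for the count when each list is cut to the 104411 peaks with the highest −log10 q-value. At equal list length *Il2ra* still had its highest count at DN (29), while *Flt3* had its lowest there (30).

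The excess of DN peaks was compared with that of all genes with 10 or more regions in their window. *Kit* had 1.91 times as many peaks at DN as at DP, a ratio above 87.5% of genes, where the median gene had 1.33. Its ratio of DN to SP4 peaks was 1.4 and of DN to SP8 peaks 1.31, beside medians of 1.29 and 1.38. *Il2ra* had ratios of 1.68, 1.54 and 1.76, above 79.6%, 73.8% and 78.3% of genes. *Flt3* had ratios of 1.13, 1.13 and 1.26, each under the median. *Cd44* stood at the other end with 0.909, 0.741 and 1, and only 3.76%, 2.35% and 8.34% of genes had a lower ratio. When every list was cut to the same length, the counts became 15, 11, 13 and 16 for *Kit*. They became 30, 38, 34 and 34 for *Flt3*, 17, 22, 25 and 20 for *Cd44*, and 29, 20, 23 and 21 for *Il2ra*. At equal length more DN peaks were thus counted for *Il2ra* against all 3 stages and for *Kit* against DP and SP4, and not for *Flt3*. On the full lists, counting only regions nearest to the gene's own start gave 13, 11, 14 and 13 peaks for *Il2ra*. The excess at DN over SP4 and SP8 was thus not seen for *Il2ra* at that setting. The counts were 10, 6, 10 and 6 for *Flt3* and 17, 19, 22 and 17 for *Cd44*, and those of *Kit* did not change. The medians and ranks of all genes were taken on the full lists and were not computed at equal length.

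The windows also differed in how densely they were open. *Flt3* had 50 regions in 169749 bp, or 29.5 per 100 kb, and *Il2ra* had 41 in 150387 bp, or 27.3 per 100 kb, above 90.3% and 85.5% of genes. *Cd44* (32 regions in 190525 bp, 16.8 per 100 kb) and *Kit* (24 in 181807 bp, 13.2 per 100 kb) lay under the median of 17.9. At DN, peaks covered 3.28% of the *Kit* window, 7.72% of *Flt3*, 3.53% of *Cd44* and 6.75% of *Il2ra*. At DP the covered share was 1.86%, 6.55%, 3.49% and 5.04%. The nearest region outside a window lay 50.6 kb from the body of *Cd44*, and the strongest of those just outside lay 84 kb from *Il2ra*, with a −log10 q of 437.9 and peaks at every stage.

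Over the 4 windows, 26 of 147 regions were called at DN only (17.7%, Wilson 95% interval 12.4 to 24.7, which covers counting error only), beside 21.7% of all regions. Of the 147, 60 (40.8%, 33.2 to 48.9) were called at all 4 stages, beside 34.1%. The 4 genes split around these values. *Il2ra* had 11 DN-only regions of 41 (26.8%, 15.7 to 41.9) and *Kit* 6 of 24 (25%, 12 to 44.9). *Flt3* had 8 of 50 (16%, 8.34 to 28.5). *Cd44* had 1 of 32 (3.12%, 0.554 to 15.7), and only 4.06% of genes with 10 or more regions had a lower share. For *Il2ra*, *Kit* and *Flt3*, 75.9%, 70.6% and 44.3% of those genes had a lower share, and their median was 17.5%. The intervals of *Kit*, *Flt3* and *Il2ra* contain the share of all regions, and that of *Cd44* lies under it. With lists of equal length the DN-only counts were 1 for *Kit*, 3 for *Flt3*, 0 for *Cd44* and 4 for *Il2ra*. Together they were 6.5% of the regions left, beside 11.1% of all regions at that setting. The cut removes the weakest DN peaks by construction, so the size of this class depends on where the lists are cut.

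**Figure D2:**
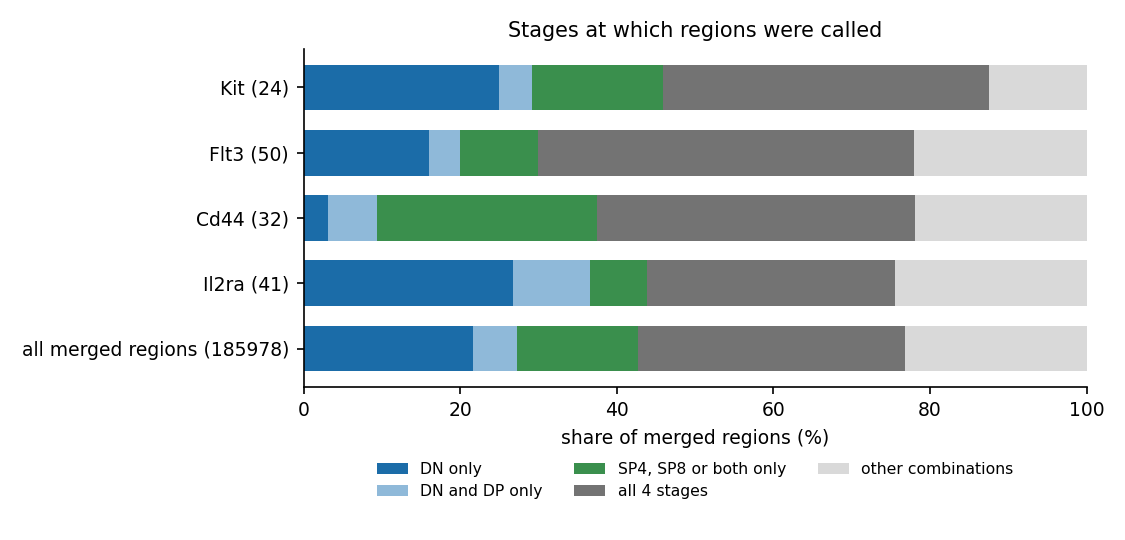
Share of merged regions (x axis, percent) by their combination of stages, for each gene and for all regions, with the number of regions in brackets. *Cd44* shows the narrowest DN-only band (3.12%) and the widest band called in SP cells alone (28.1%).

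Regions called at DN and DP only numbered 9 of 147 (6.12%) beside 5.59% of all regions. They were 4 at *Il2ra*, 2 each at *Flt3* and *Cd44*, and 1 at *Kit*. Regions called at SP4, SP8 or both but neither at DN nor at DP numbered 21 (14.3%) beside 15.4%. *Cd44* held 9 of these 21, or 28.1% of its own regions, while *Kit* held 4, *Flt3* 5 and *Il2ra* 3. Of the regions called at DN, those also called at DP were 11 of 20 at *Kit* (55%), 27 of 40 at *Flt3* (67.5%), 17 of 19 at *Cd44* (89.5%) and 18 of 34 at *Il2ra* (52.9%), beside 59.5% of all DN regions. The shares also called at SP4 were 60%, 72.5%, 78.9% and 55.9% in the same order, beside 58.2%. At SP8 they were 60%, 70%, 78.9% and 52.9%, beside 56.1%. The *Cd44* and *Flt3* shares lay above those of all DN regions at each later stage. The *Il2ra* shares lay below them, but only slightly at SP4 (19 of 34 regions). No intervals were computed for these shares.

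**Figure D3:**
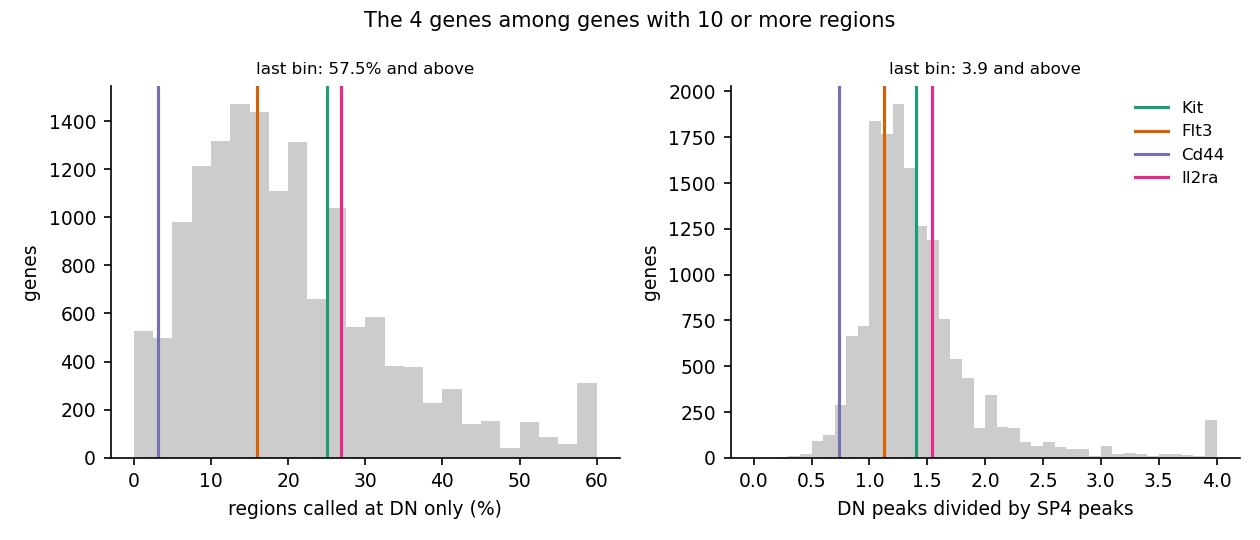
Number of protein-coding genes with 10 or more regions (y axis) by the share of their regions called at DN only (left, percent) and by the ratio of DN to SP4 peaks (right), with the 4 genes as vertical lines. *Cd44* lies in the lower tail of both distributions, with 3.12% and 0.741, and *Il2ra* to the right of the middle, with 26.8% and 1.54.

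DN-only regions were low. The percentile of a peak is the share of its stage's peaks that have a lower fold enrichment, the pileup at the summit over the local background. The median DN percentile of the 26 DN-only regions was 20.4, against 73.2 for the 60 regions called at all 4 stages. Over all regions the medians were 30.2 and 73.5. The DN-only regions had a median width of 167 bp (100 to 374) and those of all 4 stages one of 452.5 bp (173 to 1197). Only 2 DN-only regions passed the 60th percentile, both at *Flt3*.

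**Figure D4:**
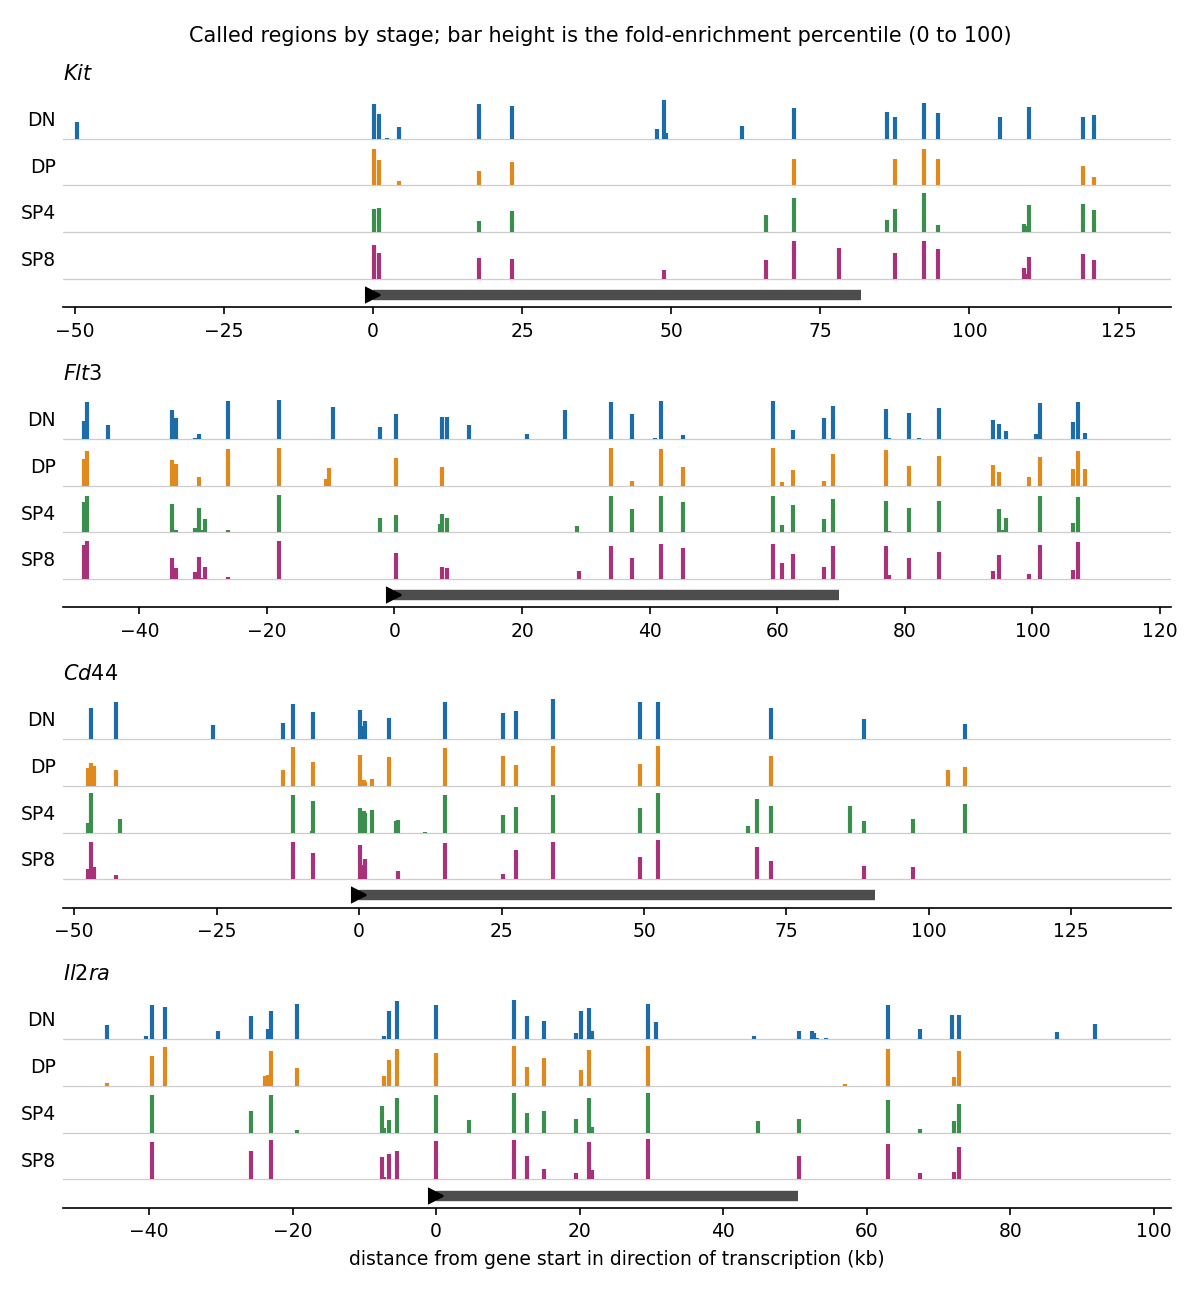
Regions around each gene by distance from the gene start (x axis, kb), with a row for each stage and a bar whose height is the fold-enrichment percentile of the region's highest peak at that stage (0 to 100). The dark bar is the gene body and the arrowhead its start. Regions of all 4 stages recur down the rows, and single DN bars without a partner below are the DN-only regions.

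*Kit* lies on chromosome 5 at 75574916-75656722 on the plus strand. All 24 of its regions had *Kit* as the nearest protein-coding start. Of these, 1 lay over the gene start, 11 in introns, 1 over exon 10, 10 downstream and 1 upstream. The region that set DN apart was at +48.8 kb in intron 7. Its fold enrichment was 21.4 at DN (95.8th percentile, −log10 q 133.6) and 3.93 at SP8 (23rd percentile, 5.26), and it had no peak at DP or SP4. DN-only peaks flanked it at +47.7 kb and +49.2 kb, at the 23.3rd and 15.1st percentile. In intron 1, the region at +17.7 kb had a fold enrichment of 13.5 at DN, against 4.44, 4.27 and 6.55 later. Those are the 85.3rd, 36.1st, 28.5th and 52.6th percentile, and a drop from DN to SP4 this large was met in 2.59% of the 81942 regions called at both stages. Its neighbour at +23.3 kb had percentiles of 79.5, 58.6, 51.7 and 49.4. The +48.8 kb and +17.7 kb regions therefore shared a DN maximum, but only the latter was called at every stage.

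Other *Kit* regions were higher in SP cells. At +78.2 kb in intron 19, near the 3′ end of the gene, a peak was called at SP8 alone, with a fold enrichment of 12 (76.4th percentile, −log10 q 41.6). Its −log10 q was higher than that of 98.9% of the 7831 SP8-only regions. The region at +70.6 kb in intron 13 had percentiles of 75.4, 64.3, 84 and 93.6. Downstream of the gene at +92.4 kb, percentiles were 87.1, 89.2, 96 and 93.3. The 6 DN-only regions reached percentiles of 2.61 to 53.3, with the highest at +105.2 kb. A region at +4.4 kb in intron 1 was the single one called at DN and DP only (30th and 11.6th percentile).

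*Flt3* lies on chromosome 5 at 147330741-147400489 on the minus strand, and its window is crowded with other genes. Only 15 of its 50 regions had *Flt3* as the nearest protein-coding start. The rest were nearest to *Urad* (13), which encodes an enzyme of uric acid breakdown, *Pan3* (12), which encodes a subunit of an mRNA deadenylase, and *Cdx2* (10), a homeobox gene. The region at -26.1 kb had the widest gap between DN and SP4. Its fold enrichment was 18.5 at DN and 17 at DP, but 3.01 at SP4 and 2.92 at SP8. The percentiles were 93, 90.7, 6.13 and 6.28, and the −log10 q-values 373.7, 407.6, 7.97 and 8.26. A drop from DN to SP4 at least as large was seen in 0.0622% of the 81942 regions called at both stages. It lay 3589 bp from the start of *Pan3*, the nearest protein-coding start, so its gene is not settled by position.

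The DN-only regions nearest to *Flt3* itself included the highest of all 4 windows. At -9.6 kb the fold enrichment at DN was 11.3 (79.7th percentile, −log10 q 37.4), over the pseudogene *Gm29793*. At +26.7 kb in intron 4 it was 9.14 (72.3rd percentile, 30.3). Their −log10 q-values exceeded those of 94.3% and 92.3% of the 40393 DN-only regions. The others of the 8 lay at the 33.6th percentile or lower. The opposite trend was seen over exon 13 at +45.3 kb, with fold enrichments of 3.12, 4.99, 11.1 and 11.8 (9.77th, 44.8th, 75.6th and 75.6th percentile). A rise this large from DN to SP4 occurred in 0.351% of regions called at both. In contrast, the regions at +33.9 kb and +41.8 kb in intron 9 were high at every stage, with percentiles of 81.5 to 91.5 and 86.3 to 92.3. At -18.1 kb percentiles were 96.3, 93.7, 91.9 and 94.2. Those 3 regions were nearest to *Flt3*, *Urad* and *Pan3*, in that order.

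*Cd44* lies on chromosome 2 at 102811141-102901665 on the minus strand. Of its 32 regions, 26 had *Cd44* as the nearest protein-coding start and 6 had *Slc1a2*, a glutamate transporter gene. Although *Cd44* was the gene least rich in DN-only regions, a strong DN region stood at -42.7 kb. Its fold enrichment was 17.1 at DN (91.3rd percentile, −log10 q 117.1), 4.52 at DP (38.4th, 7.58) and 3.13 at SP8 (9.39th, 4.96), with no peak at SP4. In intron 5 at +49.3 kb, fold enrichment was 16.4 at DN and 6.01, 7.3 and 6.82 at DP, SP4 and SP8. Its neighbour in the same intron at +52.5 kb went the other way, with 17.9 at DN and 26.7, 25 and 25.6 later. The single DN-only region, at -25.7 kb, was low (34.3rd percentile).

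The 9 *Cd44* regions called in SP cells alone comprised 6 at SP4 only and 3 at both SP stages. The highest overlapped exon 15 at +69.9 kb, with a fold enrichment of 13.5 at SP4 (82nd percentile) and 12.9 at SP8 (78.8th), each at a −log10 q of 46.4. The highest of the SP4-only regions, in intron 18 at +86.2 kb, was at the 64.7th percentile, and the other 5 were at the 32.6th or lower. The region at -47 kb was called at all stages with percentiles of 75.6, 55.9, 97.8 and 92.8. Upstream at -11.6 kb, fold enrichment was 14 at DN and 21.2, 19.7 and 19.9 later.

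*Il2ra* lies on chromosome 2 at 11642807-11693193 on the plus strand. Of its 41 regions 16 were nearest to its own start, 15 to that of *Il15ra*, the alpha chain gene of the interleukin 15 receptor, and 5 each to *Gm17490* and to the splicing factor gene *Rbm17*. The DN-only regions were mostly not nearest to the *Il2ra* start, although 6 lay in the gene body or within 10 kb of it, 2 of them in introns. Of the 11, 8 were nearest to the start of *Il15ra*, 2 to that of *Rbm17* and 1, at +30.7 kb in intron 1, to that of *Il2ra* itself. Those nearest to the *Il15ra* start included one at +44.3 kb in intron 7 of *Il2ra*. Their percentiles ran from 2.43 to 59.4, with the highest at +71.8 kb within *Il15ra*.

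The region of the *Il2ra* window with the highest −log10 q-value, at +10.8 kb in intron 1, was open throughout. Fold enrichments were 22.2, 25.3, 24.4 and 24.9, all between the 96.4th and the 97.9th percentile. Its −log10 q was 393.3 at DN and 754.4 at SP8. Also in intron 1, the region at +29.5 kb had a fold enrichment of 14.5 at DN and of 30.3, 28.3 and 31 later, above the +10.8 kb region at those 3 stages. Its −log10 q-values there were 181.2, 145.9 and 191.7, below the 502.1, 716.2 and 754.4 of the +10.8 kb region. Upstream at -5.4 kb fold enrichment was highest at DN, with 19.2, 17.6, 15.7 and 9.95. At -23 kb, nearest to the start of *Gm17490*, the values were 8.54, 13.8, 20.1 and 25.4, so each stage in this order stood above the one before. The −log10 q-values there were 83.1, 75.2, 131.1 and 370.2, with DP below DN, and the percentile was 23 points higher at SP4 than at DN by fold enrichment but 4.1 points higher by q-value.

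Some *Il2ra* regions were held by DN and DP cells alone. At -37.7 kb fold enrichment was 11 at DN and 20.8 at DP (78.8th and 95th percentile), with −log10 q-values of 91.6 and 386.3, and no peak at SP4 or SP8. The higher value exceeded that of 99.7% of the 10401 regions called at DN and DP only. This region lay 954 bp from the start of *Rbm17*, its nearest protein-coding gene. At +20.2 kb in intron 1, fold enrichment was 8.71 at DN and 4.5 at DP. At -19.4 kb it was 13.9 at DN, 4.95 at DP and 3.06 at SP4, with no peak at SP8. A drop in percentile from DN to SP4 as large was met in 0.25% of regions called at both. Conversely, the region at -7.6 kb was at 2.16 at DP, 8.49 at SP4 and 6.82 at SP8, with no peak at DN.

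Regions with a wide gap between DN and mature cells were then counted in all windows by limits set after these values were seen. A region was counted where it reached the 75th percentile at DN and was at least 30 points lower at both SP stages, with no peak taken as 0. This held for 8 of 147 regions (5.44%), beside 4.41% of all regions. Each gene had 2 of them, *Kit* +17.7 and +48.8 kb, *Flt3* -9.6 and -26.1 kb, *Cd44* -42.7 and +49.3 kb and *Il2ra* -37.7 and -19.4 kb. They differed at DP. *Flt3* -26.1 kb and *Il2ra* -37.7 kb were above the 90th percentile there, *Kit* +48.8 kb and *Flt3* -9.6 kb had no DP peak, and the other 4 lay between the 36.1st and 54.6th. The mirror image, the 75th percentile at SP4 or SP8 and at least 30 points lower at DN than at both, was met by 3 regions (2.04%), beside 1.28% of all regions. These were *Cd44* +69.9 kb, *Flt3* +45.3 kb and *Flt3* -48.7 kb, the last of which had percentiles of 43.6, 66.6, 73.8 and 83.2 and was nearest to *Pan3*.

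**Figure D5:**
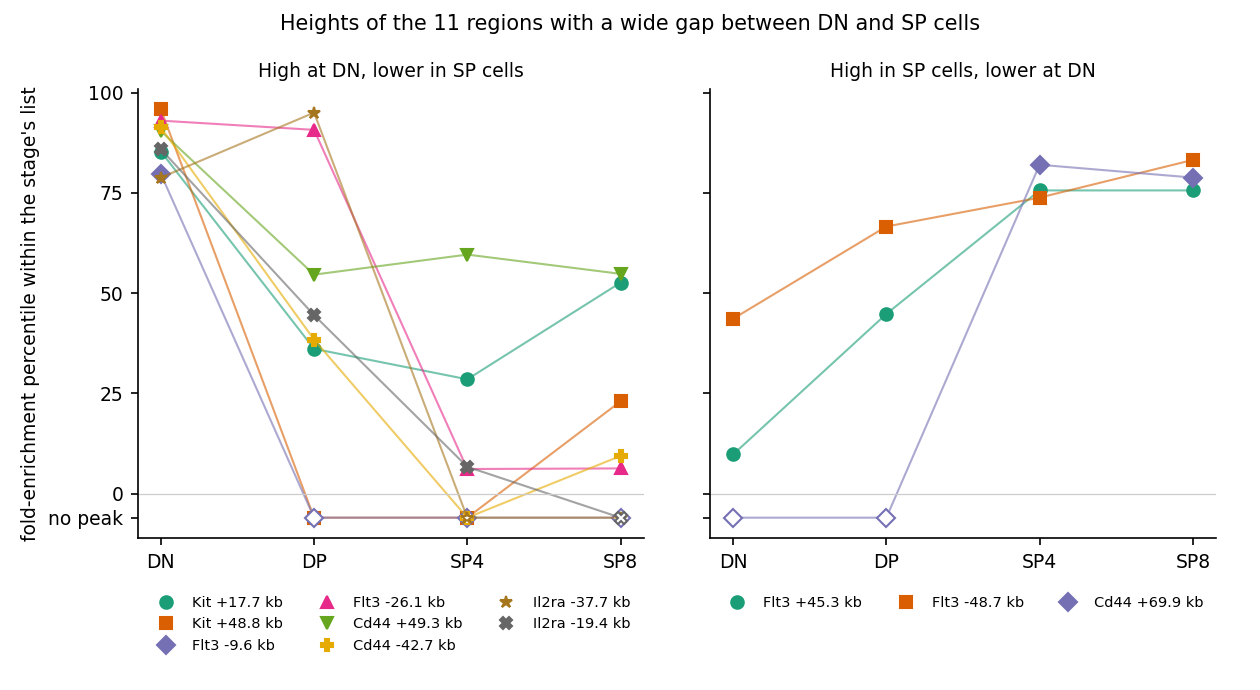
Fold-enrichment percentile within each stage's list (y axis) of these 8 and 3 regions across the stages (x axis), with open symbols where no peak was called. In the left panel *Flt3* -26.1 kb is at 90.7 at DP and 6.13 at SP4, and in the right panel *Flt3* +45.3 kb is at 9.77 at DN and 75.6 at SP4.

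All 4 genes had a region over the gene start at every stage, as did 50.1% of the 20780 genes. None of the starts was confined to DN. At the *Kit* start fold enrichments were 14.2, 16.5, 7.08 and 14.8, with −log10 q-values of 221.7, 199.4, 23.1 and 137.3. The SP4 value stood apart from the other 3. The *Flt3* start, which it shares with the antisense gene *Gm26597*, had 7.01, 8.12, 5.15 and 8.47. The *Cd44* start had 9, 10.5, 7.37 and 15.6. The *Il2ra* start had 13.3, 11.7, 19.6 and 21.3, so it was higher in both SP lists than at DN. As percentiles, the starts ranged over 58.1 to 90 at *Kit*, 41.9 to 67.6 at *Flt3*, 60.3 to 85.1 at *Cd44* and 80.3 to 93.4 at *Il2ra*. SP4 was the lowest stage for *Kit*, *Flt3* and *Cd44*.

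The 200 bp upstream of each gene start, read in the direction of transcription, are shown because these open starts differ in base composition.
*Kit* upstream (chr5:75574716-75574915): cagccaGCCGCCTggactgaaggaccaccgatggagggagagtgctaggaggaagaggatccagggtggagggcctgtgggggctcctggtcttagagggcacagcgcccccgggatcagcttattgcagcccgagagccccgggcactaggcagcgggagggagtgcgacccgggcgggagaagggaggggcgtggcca
*Flt3* upstream (chr5:147400490-147400689, minus strand): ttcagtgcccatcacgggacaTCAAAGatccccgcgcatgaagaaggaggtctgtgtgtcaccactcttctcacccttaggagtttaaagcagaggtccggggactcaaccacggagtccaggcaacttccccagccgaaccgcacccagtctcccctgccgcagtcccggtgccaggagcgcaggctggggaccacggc
*Cd44* upstream (chr2:102901666-102901865, minus strand): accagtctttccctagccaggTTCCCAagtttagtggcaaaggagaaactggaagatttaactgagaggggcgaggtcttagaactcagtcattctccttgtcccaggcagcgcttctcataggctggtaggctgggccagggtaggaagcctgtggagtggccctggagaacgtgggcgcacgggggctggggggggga
*Il2ra* upstream (chr2:11642607-11642806): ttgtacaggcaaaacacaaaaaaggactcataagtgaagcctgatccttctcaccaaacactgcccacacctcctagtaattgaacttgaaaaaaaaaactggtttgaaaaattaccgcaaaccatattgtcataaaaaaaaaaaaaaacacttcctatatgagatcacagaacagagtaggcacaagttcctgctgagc
G and C made up 69% of the *Kit* window, 62% of *Flt3*, 58.5% of *Cd44* and 37% of *Il2ra*. The *Il2ra* window held no match to any of the 11 motifs. The others held 1 each, a CTCF match at *Kit*, a TCF7/LEF1 match at *Flt3* and an RBPJ match at *Cd44*. Such matches were found in 24.2%, 10.6% and 17.8% of 20777 windows of this length upstream of protein-coding genes.

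Across the 75 regions called at both DN and SP4, the percentile was lower at SP4 in 39 (52%), beside 56.9% of all such regions. At DP it was lower than at DN in 40 of 73 (54.8%), beside 59.6%, and at SP8 in 37 of 73 (50.7%), beside 57.6%. By gene, *Kit* had 8 of 12 regions lower at SP4, *Flt3* 16 of 29, *Cd44* 7 of 15 and *Il2ra* 8 of 19. At SP8 the counts were 6 of 12, 17 of 28, 8 of 15 and 6 of 18. These counts give the direction alone and leave out regions without a peak at the later stage.

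Motif matches were sought on both strands, without mismatch, in the 100 bp around each summit. The letters were TGTGGT for RUNX, GAGGAAGT for PU.1, CAGGAAG for ETS, AGATAA for GATA and CTTTGA for TCF7/LEF1. They were TGANTCA for AP-1, AGGNGGC for CTCF, TTCNNNGAA for STAT and TGGGAA for RBPJ, the DNA-binding partner of Notch. E-boxes, which E proteins bind, were sought as CAGCTG or, separately, as CAGGTG. The ETS and PU.1 letters share GGAAG, and those of RBPJ share GGGAA with Ikaros. RUNX was matched in 24 of 147 regions (16.3%), beside 15.8% of all regions. RBPJ was matched in 10.9% (6.81 to 16.9) beside 6.69%, GATA in 6.12% (3.25 to 11.2) beside 3.36% and PU.1 in 5.44% (2.78 to 10.4) beside 2.92%. The E-boxes were matched in 9.52% and 12.2%, beside 11.6% and 14.7%, and ETS in 12.2% beside 14.1%. Shares for TCF7/LEF1, STAT, AP-1 and CTCF were 9.52%, 3.4%, 6.12% and 11.6%, beside 7.61%, 2.2%, 3.87% and 11.3%. Which intervals left out the share of all regions depended on the window. In 100 bp it was that of RBPJ alone, which did not hold in 200 bp around the summit (17.7%, 12.4 to 24.7, beside 15.2%) or over whole regions (27.9%, 21.3 to 35.6, beside 22.1%). In 200 bp they were those of GATA (12.9%, 8.43 to 19.3, beside 8.05%) and TCF7/LEF1 (23.1%, 17 to 30.6, beside 16%). Over whole regions it was that of GATA (20.4%, 14.7 to 27.6, beside 11.5%), with matches in 13 of the 32 *Cd44* regions.

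Of the 16 regions with an RBPJ match, 9 were at *Flt3* and 4 at *Kit*, with 2 at *Il2ra* and 1 at *Cd44*. Among those printed above, *Kit* +48.8 kb, *Flt3* -26.1 kb and *Flt3* +26.7 kb held one. *Kit* +48.8 kb and *Il2ra* -37.7 kb each held the E-box CAGGTG. RUNX letters were found in *Cd44* -42.7 kb, *Cd44* +69.9 kb, *Il2ra* +10.8 kb and *Il2ra* +71.8 kb, and the AP-1 letters in *Cd44* +69.9 kb. *Kit* +78.2 kb and *Cd44* -25.7 kb held none of the 11.

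Genes that act with these receptors were counted in the same way. Of the ligand genes, *Kitl* had 5, 2, 3 and 0 peaks, *Flt3l* had 35, 25, 24 and 26, and *Il2* had 11, 6, 11 and 8. The start of *Il2* was called at SP4 and SP8 only. *Il2rb*, the beta chain gene of the interleukin 2 receptor, had 25, 22, 24 and 27 peaks and an open start at every stage. Among 9 genes of KIT and FLT3 signalling, 6 had the most peaks at DN, a share near the 63.5% of all genes. They included the kinase gene *Lyn* (29, 10, 13 and 10, with 17 DN-only regions of 33), the phosphoinositide 3-kinase subunit gene *Pik3cd* (47, 30, 26 and 33) and *Socs2*, a feedback inhibitor (23, 11, 13 and 9). Of 5 assessable genes of interleukin 2 receptor chains and signalling, 3 had the most peaks at DN, as did 3 of 3 further class III receptor kinase genes, 2 of 3 genes that link CD44 to the cytoskeleton, and 2 of 3 hyaluronan synthase genes, each to be read against the same 63.5%. *Pdgfra*, the class III kinase gene closest to *Kit* on chromosome 5, had 18, 4, 6 and 8 peaks and no region over its start. *Stat5a* and *Stat5b* share a chromosome, as do *Csf1r* and *Pdgfrb*, and whether their windows overlap was not examined. The lists hold no peak on chromosome X, so *Il2rg* and *Msn* could not be assessed.

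The genes whose windows were most like those of the receptors were sought among 14898 genes, by the mean absolute difference in the share of regions called at the 4 stages. For *Kit* they were *Thrap3*, *Mia3* and *Gmfb* (1.08 to 1.39 percentage points), and for *Flt3* they were *Cuedc1*, *Hoxb4* and *Sgta* (0.769 to 0.889). For *Cd44* they were *Nebl*, *Ube2w* and *Psd4* (1.56 to 1.68), and for *Il2ra* they were *Aldh1l1*, *Ninj1* and *Chp1* (0.61 to 1.02).

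The labels were checked against marker genes by the same counts. All 5 early DN markers and all 5 late DN markers had the most peaks at DN, beside 63.5% of all genes. The late DN genes *Rag1* and *Rag2*, both on chromosome 2, had nearly the same counts (32, 24, 27 and 24, and 30, 24, 27 and 25). Their windows may therefore not be independent, and the same may hold for the DP genes *Cd8a* and *Cd8b1* on chromosome 6. Of the later lists, 1 of 4 DP genes (*Cd4*, with 31, 24, 27 and 25), 2 of 3 SP8 genes (*Eomes* and *Nkg7*), 1 of 4 mature T cell genes (*Klf2*) and not the single SP4 gene, *Zbtb7b*, had the most at DN. *Cd8a* had 22 at DN and 28, 30 and 31 later. Among lists for cells that the sort should exclude, 4 of 4 B cell, 4 of 4 myeloid, 2 of 2 erythroid, 4 of 5 dendritic cell, 3 of 6 mast cell, 3 of 6 innate lymphoid and NK and 1 of 2 gamma delta T genes had the most at DN, against the same 63.5%. Summed over each list, DN peaks numbered 109, 75, 26, 94, 50, 180 and 55 in that order, and the highest of the other stages had 70, 51, 18, 75, 29, 176 and 47. Their regions were called at DN only in 29%, 33%, 33.3%, 18.7%, 33.9%, 13.4% and 19.7%, beside 21.7% of all regions. *Flt3* is itself on the dendritic cell list. No mast cell gene, although these cells carry KIT, had a region over its start, and *Fcer1a* had no region at all in its window. The part of such cells in the receptor windows was not tested.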

How the data were processed

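Thymocytes of 4 mice were sorted into the DN, DP, SP4 and SP8 stages. Per the study's methods, BWA was used for alignment to mm10, and Picard marked the duplicates that were taken out. Libraries were down-sampled to the median library depth, and the pooled depth still differed between stages. The authors combined the mice of each stage and ran MACS2 with a limit of 5% FDR. Versions of these tools are not given in the sources used here, and read depths per library were not used here. The deposited lists hold, for each peak, a fold enrichment, which is the ratio of the summit pileup to the local background. They also hold the −log10 q-value that the authors obtained from MACS2. The score and p-value columns were not used. An open neighbourhood raises the local background and lowers the fold enrichment, so the −log10 q-value is given beside it for many of the named regions, and a region without a peak may hold signal under the threshold.

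Peaks of the lists were merged where they shared 1 bp. Gene bodies, exons and starts came from GENCODE M21, and sequences from the RefSeq FASTA of GRCm38. All peaks lay within the chromosome lengths of that build. Named regions were picked by rule. For each gene they are the region over the start, the 1 to 3 highest by −log10 q-value in each class of stages, and the largest rise and fall in percentile from DN to SP4. Others are marked as chosen after their values were seen or belong to the neighbourhood of a named region. *Il15ra*, *Urad*, *Pan3*, *Cdx2*, *Slc1a2*, *Rbm17* and *Gm17490* are named as nearest genes. The genes and lists were chosen with earlier results of these data known. Counts were made with pandas 2.3.3 and numpy 2.4.6, Wilson intervals with scipy 1.17.1, and sequences were read with samtools 1.23.1. On simulated data, the set of stages was right at 5000 of 5000 sites, the count at 200 of 200 windows, and 550 of 550 planted motifs were found. Alternatives covered the window, the q-value threshold, list length, the annotation, the nearest gene, the summit, merging, the height measure and the motif window.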

Additional observations from a re-analysis of the deposited data

How the results depend on the processing

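No paired analysis was possible because the authors pooled the 4 mice of each stage before calling peaks, and for the same reason no mouse could be left out. Counting from the gene body alone gave 65 regions in all, with 4 DN-only regions at *Flt3*, 0 at *Cd44* and 2 at *Il2ra*. With 10 kb on either side there were 84 regions, with 5, 0 and 6 DN-only regions at the same genes, and with 100 kb *Cd44* had 3. Counting only regions nearest to the gene's own start gave 81 regions, with 4 DN-only regions at *Flt3* and 1 at *Il2ra*. At equal list length the DN-only regions numbered 1 at *Kit*, 3 at *Flt3*, 0 at *Cd44* and 4 at *Il2ra*, or 6.5% of regions beside 11.1% of all regions. Cutting the longer DN list removes its weakest peaks by construction. The other 60 values for regions stayed within 1.5 times, or within the interval of the share, under these alternatives, stricter q-values, RefSeq gene bodies, summits and wider merging. They include the DN-only regions at *Kit*, 4 with the gene body alone or 10 kb and 9 with 100 kb, which is 1.5 times either way. Of the 176 counts of peaks by gene and stage, 140 stayed within 1.5 times. Ranking heights by q-value kept the direction from DN to SP4 for all 21 named regions called at both. Motif shares rose with the window by construction, and 16 of 22 left the interval of the 100 bp value. Peak lists limit what can be said, since 1 list per stage carries no spread between mice.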
